A study of Mus musculus with 16 samples.

Results

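Synj1, Itsn1, Grik1, Kcnj6, Tiam1 and Pcp4 are neuronal genes of the mouse chromosome 16 segment that Dp16 mice carry in an extra copy, and their transcripts were followed across 16 cortex libraries. These genes were listed by name for their function, with earlier results of these data known, and are 6 of the 55385 genes in the count table and 6 of the 147 protein-coding genes of the segment. All 6 passed the filter on low counts. The libraries hold poly-A RNA of brain cortex, taken at an age of 5 months, from 4 mice for each of 4 genotypes: wild-type C57BL/6J, Dp16, 5xFAD and 5xFAD-Dp16. Dp16 is a duplication of the chromosome 16 segment whose genes have counterparts on human chromosome 21, so these mice hold 3 copies of each gene in place of 2. 5xFAD is a set of human amyloid precursor and presenilin transgenes that bear mutations of familial Alzheimer disease and are expressed in neurons from the Thy1 promoter, and 5xFAD-Dp16 mice carry the duplication and the transgenes together. The labels give a background strain for the wild-type mice alone. All 4 mice of the 5xFAD-Dp16 genotype were male, and every other genotype had 2 males and 2 females.

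The genes serve the synapse at different points. After a synaptic vesicle has released its transmitter, its membrane is taken back by endocytosis: Itsn1 encodes intersectin, a scaffold that gathers the coat and fission proteins, and Synj1 encodes synaptojanin, the lipid phosphatase that lets the coat come off. Grik1 encodes GluK1, a subunit of kainate-type glutamate receptors, and Kcnj6 encodes GIRK2, a potassium channel that G-protein-coupled receptors open to quiet a neuron. Tiam1 encodes an exchange factor that switches on the small GTPase Rac and through it the actin of dendritic spines, and Pcp4 encodes a small protein that alters how calmodulin binds calcium.

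The 250 bases upstream of the start sites of Pcp4, Synj1 and Kcnj6 are shown as the start regions of the calmodulin, endocytic and channel genes described below. They are RefSeq sequences of GRCm38.p6, each 5′ to 3′ on the gene's own strand, and the capitals mark CG pairs.
Pcp4, chr16:96467356-96467605, plus strand: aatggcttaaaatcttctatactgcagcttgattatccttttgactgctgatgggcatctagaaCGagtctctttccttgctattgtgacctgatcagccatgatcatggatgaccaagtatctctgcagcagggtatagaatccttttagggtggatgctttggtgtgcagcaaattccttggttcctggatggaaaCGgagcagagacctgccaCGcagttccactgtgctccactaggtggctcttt
Synj1, chr16:91011309-91011558, minus strand: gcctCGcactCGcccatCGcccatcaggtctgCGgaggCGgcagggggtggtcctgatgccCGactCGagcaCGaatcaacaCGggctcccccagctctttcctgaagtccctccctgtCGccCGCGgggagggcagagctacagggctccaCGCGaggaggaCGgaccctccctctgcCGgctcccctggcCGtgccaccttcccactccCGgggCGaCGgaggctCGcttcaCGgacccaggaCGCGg
Kcnj6, chr16:94997697-94997946, minus strand: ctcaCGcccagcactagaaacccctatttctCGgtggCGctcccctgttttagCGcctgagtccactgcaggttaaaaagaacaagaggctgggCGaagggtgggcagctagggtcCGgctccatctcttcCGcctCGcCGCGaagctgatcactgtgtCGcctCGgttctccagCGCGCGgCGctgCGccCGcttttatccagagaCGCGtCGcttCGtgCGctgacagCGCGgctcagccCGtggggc
The Pcp4 window shown holds 3 CG pairs and is 46.8% G and C. The Synj1 window shown holds 24 CG pairs at 71.2% G and C, and the Kcnj6 window shown 26 at 64.0%; 11 bases of the former and 5 of the latter lie in annotated exons. Over the 32851 promoter windows of the same length in the RefSeq table, the median was 6 CG pairs and 52.4% G and C, and 92.1% held at least 1 CG pair. Promoter windows were found for 5 of the 6 genes. Synj1 and Kcnj6 each have a second window in that table, with 30 and 7 CG pairs. The window of Itsn1 holds 17, and those of Tiam1 hold 6 and 9. Pcp4 thus holds the fewest CG pairs of these windows, followed by the 6 of a Tiam1 window and the 7 of a Kcnj6 window. The count of CG pairs is a description of these windows, and no reading of promoter activity was made.

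All 6 genes lie within the distal part of the triplicated segment, on GRCm38 chromosome 16. Grik1 (ENSMUSG00000022935.16) spans 87895900 to 88290265 on the minus strand, followed by Tiam1 (ENSMUSG00000002489.16) at 89787111 to 90143769 and Synj1 (ENSMUSG00000022973.18) at 90936092 to 91011308, also on the minus strand. Itsn1 (ENSMUSG00000022957.20) spans 91729281 to 91920597 on the plus strand. Kcnj6 (ENSMUSG00000043301.16) spans 94748636 to 94997701 on the minus strand, and Pcp4 (ENSMUSG00000090223.2) lies at 96467606 to 96525793 on the plus strand. The exon length over which reads were counted sets Pcp4 apart, at 0.641 kb, from Grik1 at 4.23 kb, Kcnj6 at 6.54 kb, Synj1 at 7.23 kb, Tiam1 at 7.94 kb and Itsn1 at 19.99 kb. Genes that overlap the 6 held 0 to 45 reads each over all libraries, against 1987 reads for Kcnj6, the least counted of the 6, and 233102 for Pcp4. The strand setting of the counting is not given in the sources used here.

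Each library held 12483286 to 20385010 counted reads. Wild-type replicate 2 and 5xFAD replicate 3 agreed least with the others: their median correlations with the other libraries were 0.939 and 0.938, against 0.953 to 0.972. Libraries also differed in how a gene's deviation from its mean followed its length, with rank correlations between -0.46 (5xFAD replicate 3) and 0.45 (5xFAD-Dp16 replicate 1). All 4 of the 5xFAD-Dp16 libraries had positive values, 0.10 to 0.45, while each other genotype held both signs. Differences are therefore given as counted, which is the test used throughout, and again with the length trend of each library removed. Cortical markers were present: Slc17a7, the vesicular glutamate transporter of cortical excitatory neurons, ran from 294 to 990 CPM (library-scaled counts), while Gabra6, which marks cerebellar granule cells, was at 0 in every Dp16, 5xFAD and 5xFAD-Dp16 library and reached 0.495 CPM in wild-type.

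Per length, the 6 genes differ widely in level. Mean RPKM, the read count scaled by exon length and library total, was 1304 for Pcp4, 24.9 for Synj1, 3.91 for Tiam1, 2.98 for Itsn1, 1.90 for Grik1 and 1.05 for Kcnj6 over the 16 libraries. The lowest Pcp4 value (768 RPKM) was far above the highest Synj1 value (47.6 RPKM). The other 5 genes each overlapped over the libraries with the next in that order: Synj1 began at 8.05 RPKM, Tiam1 ran from 1.39 to 8.87 RPKM, Itsn1 from 0.87 to 5.92, Grik1 from 0.74 to 3.89 and Kcnj6 from 0.23 to 2.26. In bulk tissue, fewer cells of a type and less RNA per cell cannot be told apart.

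The first question of the design is what the duplication does alone and what it does on the 5xFAD background. In Dp16 against wild-type cortex, all 6 genes were higher on average, by 0.32 (Grik1) to 1.21 (Kcnj6) on the log2 scale, and none passed an adjusted p of 0.05 (edgeR quasi-likelihood test, Benjamini-Hochberg method, 17019 genes), which 0.0176% of tested genes did. At an unadjusted p under 0.05, 3 of 6 were higher, against 2.48% of all tested genes. In 5xFAD-Dp16 against 5xFAD, the 5 long-transcript genes were 2.24 to 2.52 times higher and Pcp4 1.15 times. None of the 6 passed the adjusted threshold there, and 0% of tested genes did; 5 of 6 were higher at an unadjusted p under 0.05, against 11.8% of tested genes. DESeq2 called 0 of the 6 in the former comparison, where it called 0.203% of its genes, and 4 in the latter, where it called 7.76%. For reference, 3 copies over 2 is 1.5-fold, or 0.58 on the log2 scale.

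**Figure D1:**
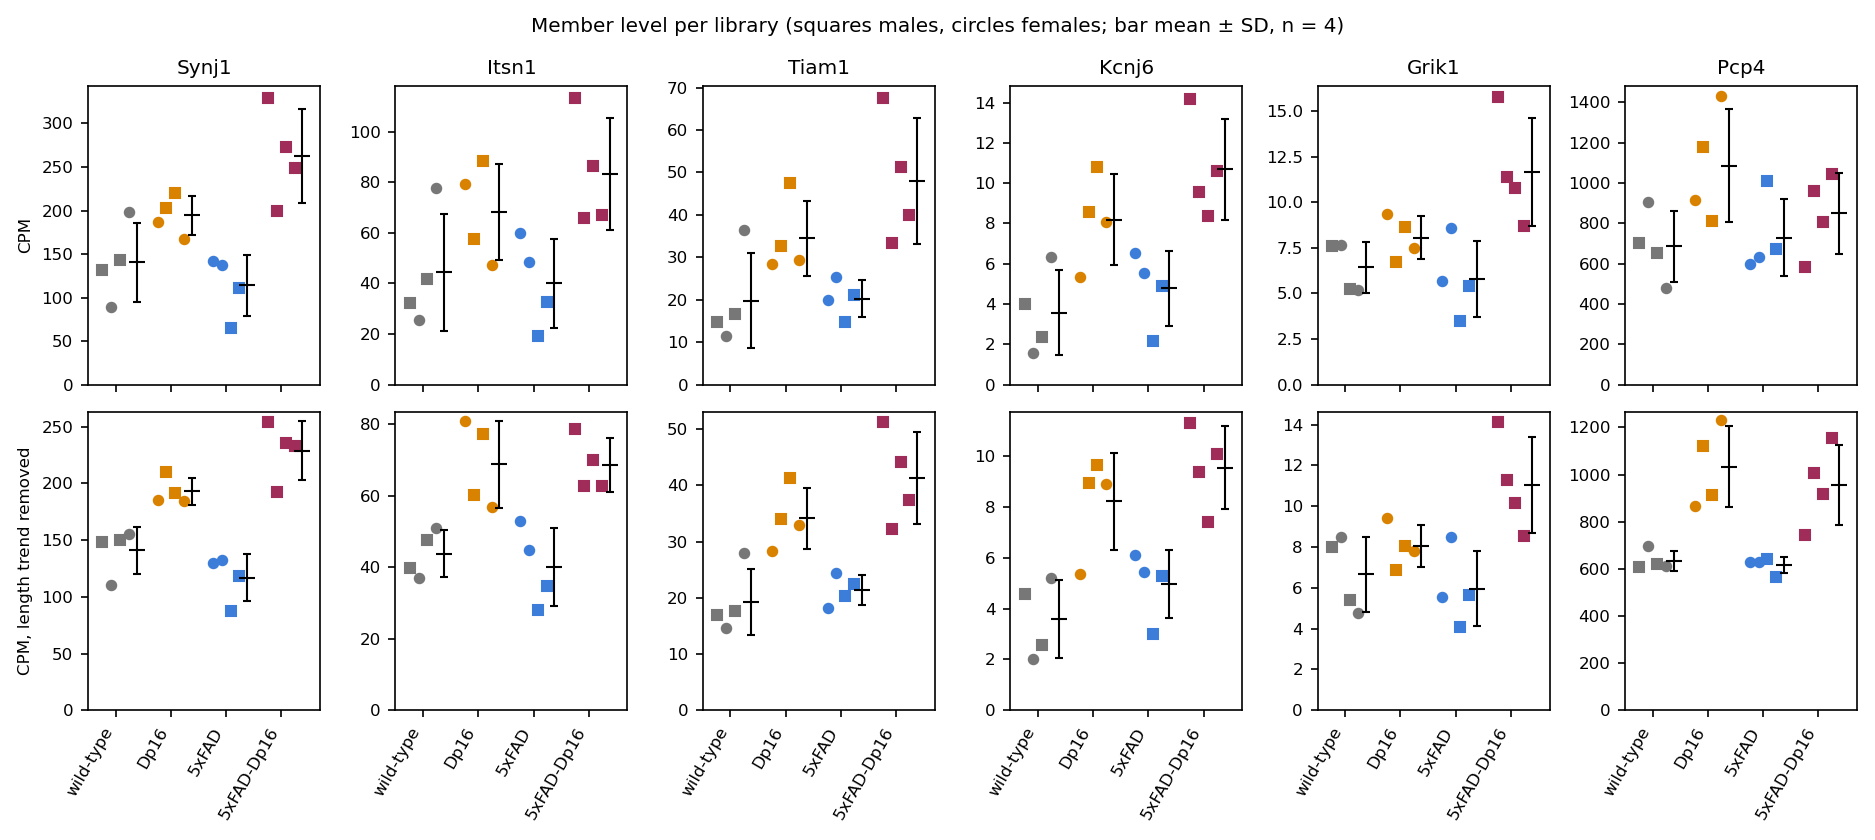
Level of each of the 6 genes in CPM (vertical axis, separate scale per gene) in each library by genotype, as counted (upper row) and with the length trend removed (lower row); squares are males, circles females, and bars the mean ± SD of 4 libraries. As counted, in 5xFAD-Dp16, Synj1 lies at 200 to 330 CPM, above the 64.8 to 142 CPM of 5xFAD, whereas Pcp4 at 585 to 1045 CPM overlaps with the 599 to 1012 CPM of 5xFAD.

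For the endocytic genes, the values below are CPM scaled by TMM factors, in order of replicate number. Synj1 was at 132, 88.9, 143 and 199 CPM in the wild-type libraries and at 187, 203, 219.6 and 168 CPM in the Dp16 libraries. In the 5xFAD libraries Synj1 was at 142, 138, 64.8 and 111 CPM, and in the 5xFAD-Dp16 libraries at 329.8, 199.9, 273 and 249 CPM. All 4 of the 5xFAD-Dp16 libraries were above all 4 of the 5xFAD libraries, while the highest wild-type library, replicate 4, lay within the Dp16 range. The group means were 141 ± 45.2 CPM in wild-type, 194 ± 22.3 in Dp16, 114 ± 35.4 in 5xFAD and 263 ± 54.0 in 5xFAD-Dp16 (SD, n = 4 each). The log2 difference was 0.48 (SE 0.24, 95% interval -0.03 to 0.98, adjusted p = 1.00) for Dp16 against wild-type. It was 1.30 (SE 0.27, 0.73 to 1.87, adjusted p = 0.122) for 5xFAD-Dp16 against 5xFAD. The second interval lies above 0.58.

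Itsn1 was at 32.3, 25.7, 41.7 and 77.8 CPM in the wild-type libraries and at 79.4, 57.8, 88.6 and 47.3 CPM in the Dp16 libraries. In the 5xFAD libraries Itsn1 was at 59.8, 48.4, 19.4 and 32.6 CPM, and in the 5xFAD-Dp16 libraries at 113, 65.8, 86.3 and 67.3 CPM. As for Synj1, the 5xFAD-Dp16 and 5xFAD libraries did not overlap, and wild-type replicate 4 reached into the Dp16 range. The spread within a genotype was wide: the highest wild-type library was 3.02 times the lowest, and the highest 5xFAD library 3.08 times. The log2 difference was 0.67 (SE 0.33, -0.02 to 1.36, adjusted p = 1.00) without the transgenes and 1.34 (SE 0.37, 0.55 to 2.12, adjusted p = 0.155) with them. Synj1 and Itsn1 thus had the same order of genotype means, with 5xFAD lowest and 5xFAD-Dp16 highest.

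Of the receptor and channel genes, Grik1 had the smallest difference in Dp16 and Kcnj6 the largest. Grik1 was at 7.61, 7.67, 5.26 and 5.20 CPM in the wild-type libraries and at 9.36, 6.72, 8.65 and 7.51 CPM in the Dp16 libraries. In the 5xFAD libraries Grik1 was at 5.66, 8.56, 3.49 and 5.39 CPM, and in the 5xFAD-Dp16 libraries at 15.8, 11.4, 10.8 and 8.69 CPM. The Grik1 values of wild-type and Dp16 overlapped, and every 5xFAD-Dp16 library was above every 5xFAD library. The log2 difference was 0.32 (SE 0.25, -0.21 to 0.86, adjusted p = 1.00) in Dp16 against wild-type and 1.16 (SE 0.28, 0.57 to 1.76, adjusted p = 0.155) in 5xFAD-Dp16 against 5xFAD.

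Kcnj6 was at 3.98, 1.57, 2.36 and 6.36 CPM in the wild-type libraries and at 5.32, 8.55, 10.8 and 8.06 CPM in the Dp16 libraries. In the 5xFAD libraries Kcnj6 was at 6.52, 5.54, 2.17 and 4.89 CPM, and in the 5xFAD-Dp16 libraries at 14.2, 9.57, 8.35 and 10.6 CPM. The lowest values were those of wild-type replicate 2 and 5xFAD replicate 3, and wild-type replicate 4 was above the lowest Dp16 library. Kcnj6 was the most variable of the 6 in wild-type, where the highest library was 4.05 times the lowest. The log2 difference was 1.21 (SE 0.39, 0.39 to 2.02, adjusted p = 0.865) in Dp16 against wild-type and 1.26 (SE 0.42, 0.37 to 2.16, adjusted p = 0.155) in 5xFAD-Dp16 against 5xFAD. These 2 differences were nearly equal, and both intervals hold 0.58.

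The Rac exchange factor gene Tiam1 was at 14.8, 11.4, 16.6 and 36.4 CPM in the wild-type libraries and at 28.4, 32.8, 47.4 and 29.4 CPM in the Dp16 libraries. In the 5xFAD libraries Tiam1 was at 19.9, 25.4, 14.7 and 21.1 CPM, and in the 5xFAD-Dp16 libraries at 67.4, 33.5, 51.4 and 40.0 CPM. Wild-type replicate 4 exceeded 3 of the Dp16 libraries, and the 5xFAD-Dp16 libraries again stood above all of the 5xFAD libraries. The log2 difference was 0.82 (SE 0.31, 0.16 to 1.49, adjusted p = 1.00) in the absence of the transgenes and 1.33 (SE 0.34, 0.60 to 2.05, adjusted p = 0.155) in their presence.

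The calmodulin regulator Pcp4 behaved otherwise. Pcp4 was at 701, 908, 654 and 480.1 CPM in the wild-type libraries and at 917, 1181, 811 and 1434 CPM in the Dp16 libraries. In the 5xFAD libraries Pcp4 was at 599, 634, 1012 and 671 CPM, and in the 5xFAD-Dp16 libraries at 585, 960.1, 809 and 1045 CPM. On the 5xFAD background the groups overlapped over most of their range, with 5xFAD replicate 3 above 3 of the 5xFAD-Dp16 libraries. The means were 686 ± 176 CPM in wild-type, 1086 ± 279 in Dp16, 729 ± 191 in 5xFAD and 850 ± 202 in 5xFAD-Dp16 (SD, n = 4 each). The log2 difference was 0.67 (SE 0.24, 0.17 to 1.16, adjusted p = 0.973) for Dp16 against wild-type, and 0.20 (SE 0.25, -0.33 to 0.72, adjusted p = 0.650) for 5xFAD-Dp16 against 5xFAD.

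Because the 5xFAD-Dp16 mice were all male, the comparison was also made among the 10 males alone. There, the log2 difference of 5xFAD-Dp16 against 5xFAD was 1.59 for Synj1, 1.69 for Itsn1, 1.40 for Grik1, 1.60 for Kcnj6 and 1.44 for Tiam1, and 5 of the 6 passed the adjusted threshold by edgeR (adjusted p from 0.0082 to 0.0116), where 22.5% of tested genes did. Pcp4 was at 0.03 (adjusted p = 0.939). The 2 male 5xFAD libraries, replicates 3 and 4, were also those of that genotype with negative correlations to length (-0.46 and -0.24), and the part of this in the calls was not tested. In Dp16 against wild-type, the differences among males ran from 0.25 for Grik1 to 1.60 for Kcnj6, and none of the 6 passed.

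Pcp4 also differs from the other 5 in counted exon length, and in 5xFAD-Dp16 against 5xFAD the differences of genes at large followed that length. In 5xFAD-Dp16 against 5xFAD, the median log2 difference of genes outside the segment was -0.52 for those under 1 kb, -0.27 for 1 to 2 kb, -0.01 for 2 to 4 kb, 0.22 for 4 to 8 kb and 0.36 for those over 8 kb. The 9 segment genes under 1 kb had a median of 0.20, which is the value of Pcp4 itself, the middle gene of that class. Those of 4 to 8 kb, which include Grik1, Kcnj6, Synj1 and Tiam1, had a median of 0.83. In Dp16 against wild-type, by contrast, the medians outside the segment stayed between -0.05 and 0.03 in all 5 classes, and those of the segment genes between 0.49 and 0.66. What produced the length trend was not tested, nor was its part in the difference between Pcp4 and the other 5.

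**Figure D2:**
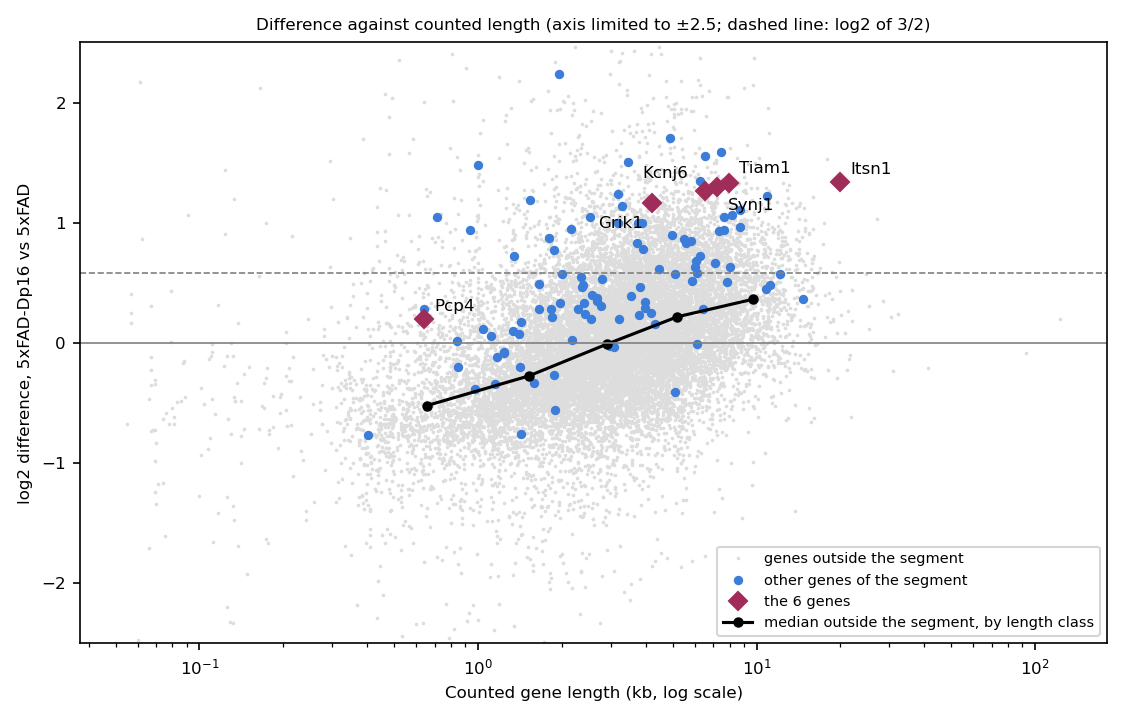
Log2 difference of 5xFAD-Dp16 against 5xFAD (vertical axis) by counted exon length in kb (horizontal, log scale) for tested genes, with points for genes outside the segment, other segment genes and the 6 genes, and a line through the class medians outside the segment; 48 genes lie beyond the vertical axis. The line climbs from -0.52 to 0.36, and Pcp4 (0.20) and the 5 long-transcript genes (1.16 to 1.34) all lie above it.

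With the length trend of each library removed, the 6 genes came closer together on the 5xFAD background, with Pcp4 still the lowest. Their log2 differences in 5xFAD-Dp16 against 5xFAD then ran from 0.67 (Pcp4) through 0.90 (Itsn1), 0.96 (Tiam1), 0.98 (Synj1 and Kcnj6) to 1.03 (Grik1). All 6 genes were then higher in every 5xFAD-Dp16 library than in any 5xFAD library, against 5.55% of tested genes; as counted it was 5 of 6 against 5.59%. The Pcp4 means became 635 ± 42.0 CPM in wild-type, 1034 ± 173 in Dp16, 617 ± 34.5 in 5xFAD and 957 ± 171 in 5xFAD-Dp16 (SD, n = 4 each). In Dp16 against wild-type the correction moved the differences little, to 0.27 for Grik1, 0.45 for Synj1, 0.65 for Itsn1, 0.70 for Pcp4, 0.82 for Tiam1 and 1.20 for Kcnj6. There, 5 of 6 genes did not overlap between the genotypes, all but Grik1, against 1.66% of tested genes, and as counted 0 of 6 against 1.44%.

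By edgeR's quasi-likelihood test on the length-corrected fit, Pcp4 rose in Dp16 against wild-type (adjusted p = 0.0391), where 0.0940% of tested genes passed. Synj1 rose in 5xFAD-Dp16 against 5xFAD (adjusted p = 0.0271), where 0.0235% passed. The remaining genes did not pass in those comparisons.

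**Figure D3:**
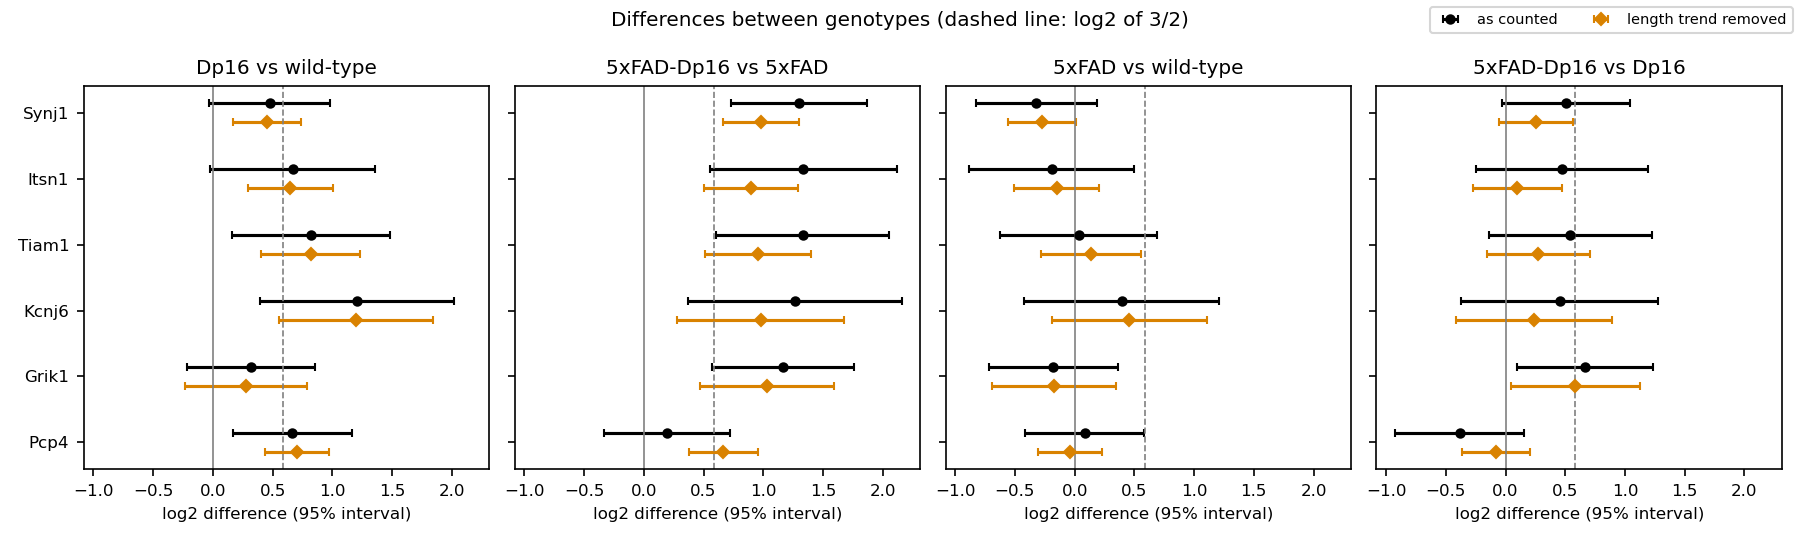
Log2 difference (horizontal axis) of each gene in 4 comparisons, with 95% intervals, as counted and with the length trend removed; the dashed line marks 0.58. In 5xFAD-Dp16 against 5xFAD, Pcp4 stands at 0.20 as counted, apart from the other 5 genes, and at 0.67 once the trend is removed.

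Over all 8 carriers of the duplication against all 8 non-carriers, averaged over the transgene, the log2 difference was 1.24 for Kcnj6 (SE 0.29), 1.08 for Tiam1 (SE 0.24), 1.00 for Itsn1 (SE 0.25), 0.89 for Synj1 (SE 0.18), 0.74 for Grik1 (SE 0.19) and 0.43 for Pcp4 (SE 0.17). None passed the adjusted threshold, with adjusted p from 0.0982 (Synj1) to 0.322 (Pcp4) by edgeR, where 0.0940% of tested genes passed. All 6 were higher at an unadjusted p under 0.05, against 7.27% of tested genes, and DESeq2 called 5 of the 6 and 0.632% of its genes. No gene of the 6 had all carriers above all non-carriers as counted, against 0.118% of tested genes; with the length trend removed 4 did, against 0.165%. With the length trend removed, 4 rose: Synj1 by 0.72 (adjusted p = 0.0025), Itsn1 by 0.77 (adjusted p = 0.0083), Tiam1 by 0.89 (adjusted p = 0.0092) and Pcp4 by 0.69 (adjusted p = 0.0022), where 0.206% of tested genes passed. Kcnj6 (1.09, adjusted p = 0.0714) and Grik1 (0.65, adjusted p = 0.218) did not pass. As counted, the interval of 5 of the 6 holds 0.58, and that of Kcnj6 (0.61 to 1.86) lies just above it.

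The amyloid transgenes gave no call for any of the 6. In 5xFAD against wild-type, the log2 differences ran from -0.32 for Synj1 to 0.39 for Kcnj6, with adjusted p of 0.647 or more by edgeR, and 0.176% of tested genes passed; at an unadjusted p under 0.05 the count was 0 of 6, against 10.7%, and DESeq2 called 0 of the 6 and 0.699% of its genes. In 5xFAD-Dp16 against Dp16, they ran from -0.39 for Pcp4 to 0.67 for Grik1, with adjusted p of 0.758 or more, and 0.0176% passed. There, Grik1 alone had an unadjusted p under 0.05, against 5.29% of tested genes, and DESeq2 called 0 of the 6 and 0.0949% of its genes. These comparisons share their libraries with the comparisons of the duplication above.

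Whether the difference made by the duplication itself differs with the transgenes was tested as an interaction. It was 0.84 for Grik1, 0.83 for Synj1, 0.67 for Itsn1, 0.51 for Tiam1, 0.06 for Kcnj6 and -0.47 for Pcp4 on the log2 scale, with adjusted p of 0.522 or more by edgeR, where 0% of tested genes passed. At an unadjusted p under 0.05 there were 2 of 6, Synj1 and Grik1, against 9.35% of tested genes, and DESeq2 called 0 of the 6 and 0.0961% of its genes. With the length trend removed the values were 0.76 for Grik1, 0.53 for Synj1, 0.25 for Itsn1, 0.14 for Tiam1, -0.22 for Kcnj6 and -0.04 for Pcp4. The larger differences of the long-transcript genes on the 5xFAD background are thus not shown to differ from those in Dp16 alone.

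Against the rest of the segment, the 6 genes were not uniform. Of its 105 tested genes, 94 were higher in Dp16 than in wild-type and the median log2 difference was 0.55, while the median over all tested genes was 0.00. Ranked from the highest, Kcnj6 was 9th of 105, Tiam1 18th, Itsn1 34th, Pcp4 35th, Synj1 68th and Grik1 83rd in that comparison. In 5xFAD-Dp16 against 5xFAD the segment median was 0.51, and Itsn1, Tiam1, Synj1, Kcnj6 and Grik1 held ranks 9, 10, 11, 12 and 16, with Pcp4 at 80. With the length trend removed these ranks were 25, 21, 19, 20 and 17, with Pcp4 at 37.

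**Figure D4:**
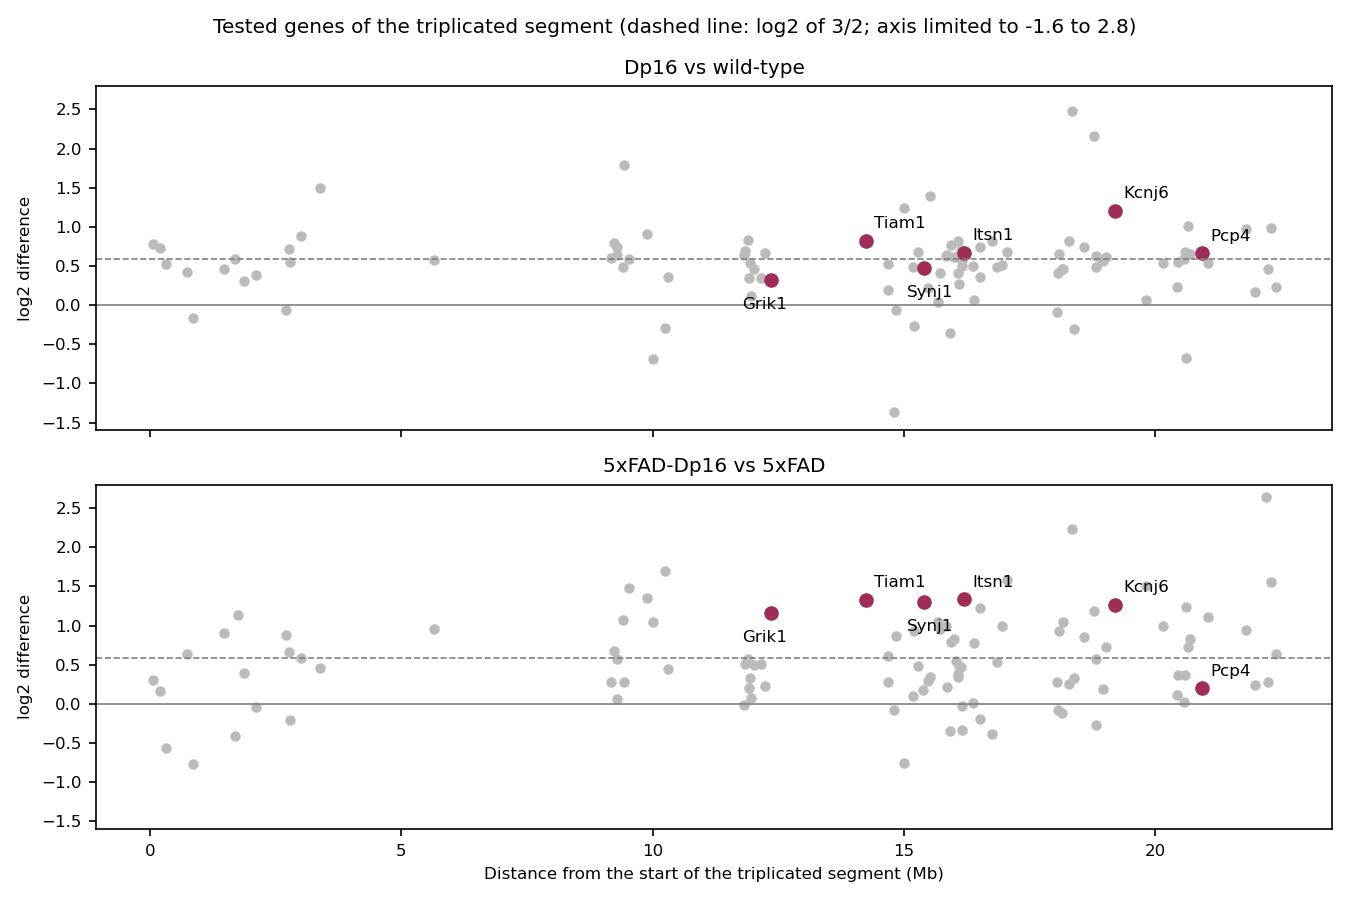
Log2 difference (vertical axis) of the 105 tested genes of the segment by distance from its start in Mb, for Dp16 against wild-type and for 5xFAD-Dp16 against 5xFAD; the 6 genes are coloured and named, the dashed line marks 0.58, and 2 genes of the upper panel lie beyond the axis. The 5 long-transcript genes spread from 0.32 to 1.21 in the upper panel and lie between 1.16 and 1.34 in the lower, where Pcp4 is at 0.20.

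The direct neighbours on the chromosome show how far position goes with these values. The nearest tested protein-coding genes on either side of the 6, 22 in all with Grik1 and Tiam1, which adjoin each other, had log2 differences of 0.07 to 1.40 in Dp16 against wild-type, all above 0. In 5xFAD-Dp16 against 5xFAD they ran from -0.20 to 1.502, with 20 of 22 above 0. Beside Itsn1 at 1.34, the short genes Atp5o (0.838 kb) and Mrps6 were at 0.01 and -0.20. Its longer neighbours Cryzl1 (2.968 kb) and Donson (2.365 kb) were at -0.03 and 0.47. Once the length trend was removed, Atp5o, Mrps6, Cryzl1 and Donson were at 0.44, 0.21, -0.05 and 0.53. Around Pcp4 at 0.20 (0.641 kb), its longer neighbours Sh3bgr (1.349 kb), B3galt5 (5.563 kb), Bace2 (7.646 kb) and Dscam (8.737 kb) were at 0.72, 0.83, 0.94 and 1.10. With the length trend removed these neighbours were at 1.05, 0.59, 0.62 and 0.72, and Pcp4 at 0.67 lay within their range.

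Each of the 6 has relatives elsewhere in the genome that stay at 2 copies, and these give a level within the same library. Of 11 such paralogs, all tested, 0 were called in any of the 6 comparisons by edgeR, and in carriers against non-carriers 3 had an unadjusted p under 0.05, as did 2557 of the 17019 tested genes: Pcp4l1 (-0.32), Grik3 (0.61) and Grik5 (0.44). In 5xFAD-Dp16 against 5xFAD, 5 were higher and 1 lower at that level, against 23.8% of all tested genes in either direction. Their median log2 difference was -0.07 in Dp16 against wild-type, against 0.00 over all tested genes, and 0.30 in 5xFAD-Dp16 against 5xFAD. With the length trend removed these medians were -0.12 and 0.03. The short relative Pcp4l1 was at -0.26 and -0.38 in those comparisons, and Synj2 at -0.08 and 0.84. By level, Grik5 (19.4 RPKM) and Grik2 (4.81) exceeded Grik1 among kainate receptor genes, and Kcnj3 (22.3) and Kcnj9 (14.5) exceeded Kcnj6 among channel genes. Tiam2 (18.4) exceeded Tiam1, and Itsn2 (5.21) exceeded Itsn1 (2.98). Synj1 and Pcp4, on the other hand, exceeded Synj2 (4.67) and Pcp4l1 (210.1).

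Of the gene-to-paralog ratios compared, only that of Pcp4 to Pcp4l1 separated carriers from non-carriers in every library. On the log2 scale it was 0.59 to 0.90 in wild-type and 0.74 to 1.34 in 5xFAD, against 1.38 to 1.92 in Dp16 and 1.51 to 1.80 in 5xFAD-Dp16. The means were 0.81 ± 0.15, 1.01 ± 0.30, 1.72 ± 0.25 and 1.67 ± 0.12 in that order (SD, n = 4 each). The ratio of Synj1 to Synj2 averaged 2.02 in wild-type, 2.58 in Dp16, 2.08 in 5xFAD and 2.66 in 5xFAD-Dp16, and its wild-type libraries (1.77 to 2.48) overlapped with those of Dp16 (2.47 to 2.70). The ratios of Itsn1 to Itsn2, Grik1 to Grik2, Kcnj6 to Kcnj3 and Tiam1 to Tiam2 also overlapped between carriers and non-carriers. A ratio of this kind shows unequal levels and not which of the 2 genes moved. Taken singly, the log2 difference in Dp16 against wild-type was 0.67 for Pcp4 and -0.26 for Pcp4l1. In 5xFAD-Dp16 against 5xFAD it was 0.20 for Pcp4 and -0.38 for Pcp4l1, so the lower paralog enters that ratio. With the length trend removed the latter values were 0.67 and -0.15.

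**Figure D5:**
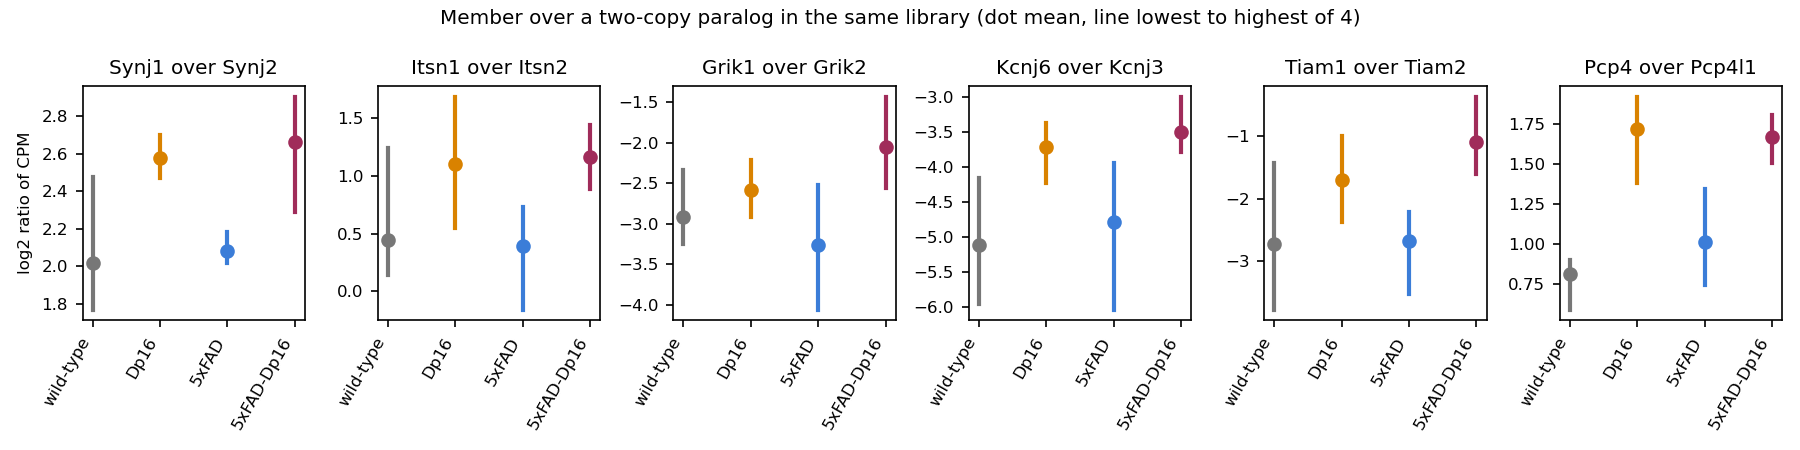
Log2 ratio of CPM of each gene to its named paralog (vertical axis, separate scale per pair) by genotype; dots are means and lines run from the lowest to the highest of 4 libraries. For Pcp4 over Pcp4l1, the 8 carrier libraries lie at 1.38 or above and the 8 non-carrier libraries at 1.34 or below. In each other pair the ranges of carriers and non-carriers overlap.

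The partners of the 6 genes outside the segment were counted by function, and 0 were called in any of the 6 comparisons, as counted or with the length trend removed. Of 38 endocytosis genes, 8 were higher and 2 lower in carriers at an unadjusted p under 0.05, with a median of 0.11 (0.04 with the trend removed). Over all tested genes, 7.27% were higher, 1320 of 17019 were lower and the median was 0.01. The smallest p-values were those of Dnm3, a dynamin that cuts vesicles free (0.38), Ap2a1, a subunit of the clathrin adaptor (0.66), Hspa8, the chaperone that takes clathrin coats apart (-0.27), and Epn1, an endocytic adaptor (0.45), each at an adjusted p of 0.322. Of 33 genes of Rac signalling, 5 were higher and 1 lower, with a median of 0.25 that became 0.06 with the trend removed; Pak3 (0.22) and Pak1 (0.25), kinases that Rac activates, Git1 (0.59) and Efnb1 (0.53) led by p.

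Of 22 genes of G-protein-gated channel signalling, 3 were higher at that level, with a median of 0.09 (0.05 with the trend removed): Gabbr2, a subunit of the GABA-B receptor (0.63), Gnao1, a G-protein alpha subunit (0.46), and Gng2, a G-protein gamma subunit (0.22). Of 5 kainate receptor partners, 1 was higher, the postsynaptic scaffold gene Dlg4 (0.38), and the median was 0.16 (-0.04 with the trend removed). Of 24 calmodulin partners, 3 were higher and 2 lower, with a median of 0.08 (0.06 with the trend removed). The share of all tested genes that were higher at that level was 7.27% for each of these lists, and 1320 of 17019 were lower. The kinase gene Camk1 was at -0.36, Camk1d at 0.40, Camta2 at 0.63 and Camk2d at 0.27. All adjusted p of these named genes were 0.322 or more by edgeR.

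Across the 16 libraries, the levels of the 5 long-transcript genes moved together, Grik1 least. The Pearson correlation of log2 CPM was 0.62 to 0.94 over their 10 pairs, and 0.16 to 0.92 after each genotype's mean was taken out. In the latter, the pairs with Grik1 were at 0.16 to 0.34 and the pairs without it at 0.74 to 0.92. Pcp4 correlated with the other 5 at -0.20 to 0.04, and at -0.93 to -0.43 within genotypes. These libraries differ in depth and in length trend, so the values are a description.

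Among 14620 genes, those most like Pcp4 were Cryzl1 (0.938), Atp5o (0.913) and Atp5j (0.912), all 3 in the segment. Synj1 was most like Slc5a3 (0.951), App (0.948) and Ets2 (0.947), also in the segment, and Kcnj6 was most like Tiam1 (0.908). The 3 genes most like Itsn1 lie outside the segment: Plxna1 (0.971), Itpkb (0.969) and Rab11fip3 (0.967), of 5.81 to 9.03 kb. Tiam1 was most like Nos1 (0.925) and Timp2 (0.922), and Grik1 most like Smoc1 (0.844).

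Markers of cell types and regions in which these genes are strong were summed per library. Pcp4 is known for its high level in the striatum, and the summed level of 13 striatal markers, none of them at 0, overlapped between all genotypes: 1606 to 2418 CPM in wild-type, 1636 to 2453 in Dp16, 1407 to 2326 in 5xFAD and 1339 to 2096 in 5xFAD-Dp16. The 12 deep-layer markers summed to 451 to 577 CPM in wild-type and 438 to 485 in Dp16, and to 418 to 458 in 5xFAD and 476 to 559 in 5xFAD-Dp16. On the 5xFAD background these groups did not overlap, and neither did the sums of 9 upper-layer markers (560 to 600 against 618 to 677 CPM), 9 excitatory neuron markers (2458 to 4278 against 4297 to 6046 CPM) and 12 hippocampal and thalamic markers (51.5 to 58.9 against 63.4 to 75.4 CPM). Among the last of these, Tcf7l2 was at 0 in wild-type alone. These sums are as counted, with the length trend left in. By log2 difference, 3 of 12 deep-layer, 3 of 9 upper-layer, 1 of 9 excitatory and 3 of 12 hippocampal and thalamic markers were lower in 5xFAD-Dp16. The median log2 differences of these lists were 0.39, 0.61, 0.50 and 0.83 in that order. With the length trend removed they were 0.36, 0.21, 0.57 and 0.60, and 9, 7, 8 and 12 markers were then higher. Of all single genes tested, 5.59% were higher without overlap in this comparison. A sum weighs its most abundant markers most, and no such share was made for sums. The 16 interneuron markers summed to 2004 to 2696 CPM in 5xFAD and 2106 to 2185 in 5xFAD-Dp16. The 8 microglial markers were at 624 to 881 CPM in 5xFAD and at 449 to 524 in 5xFAD-Dp16. The 10 cerebellar and olfactory markers summed to 14.2 to 27.1 CPM in all libraries, with Pcp2, Gabra6, Eomes, Barhl2 and Cbln3 at 0 in 1 or more. Pcp2, a cerebellar Purkinje cell marker, reached 1.83 CPM in a 5xFAD library. The part of these markers in the differences of the 6 genes was not tested.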

How the data were processed

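Read counts per gene were deposited by the authors as whole numbers with no normalization. RPKM values, deposited by the authors in a second table, gave levels per length and the counted gene lengths. Per the submitters' processing notes, HISAT2 2.1.0, SAMtools 1.5, HTSeq 0.6.1, FastQC 0.11.5 and bcl2fastq were used with build GRCm38; their settings are not given in the sources used here. Per the labels' protocols, libraries were strand-specific and made from polyadenylated RNA. Depth was 12483286 to 20385010 counted reads. Positions came from Gencode M21, joined by gene ID, which matched 55144 of 55385 genes.

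Genes kept by filterByExpr (17019) were fitted with edgeR 4.0.16 in R 4.3.3: TMM scaling, a mean per genotype plus sex over all 16 libraries, robust quasi-likelihood tests, two-sided, with p adjusted by Benjamini-Hochberg across the tested genes (threshold 0.05). CPM are TMM-scaled. Standard errors and 95% intervals follow from the F statistic. Length correction was a loess offset per library of log2 deviation on log2 length. DESeq2 1.42.0 was an alternative. Nothing states that libraries of a group came from separate litters or batches, so p-values measure the spread between these mice. The 6 genes and all lists were chosen with earlier results of these data known. Named genes were the 6, their paralogs, the 4 smallest p-values of each partner list, chromosomal neighbours and the 3 best-correlated genes. Alternatives were other scaling, filter, tool, design, sex, length correction and left-out libraries.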

Additional observations from a re-analysis of the deposited data

How the results depend on the processing

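The count of the 6 genes past the threshold was 0 in each comparison and depended on the processing, whereas the direction in Dp16 against wild-type, in 5xFAD-Dp16 against 5xFAD and in carriers against non-carriers did not turn for any of the 6 under any alternative. DESeq2 called 4 in 5xFAD-Dp16 against 5xFAD, where it gave Kcnj6 no adjusted p, and 5 in carriers. No filter on low counts gave 4 in Dp16 against wild-type, 5 in 5xFAD-Dp16 against 5xFAD, 6 in carriers and 1 for the interaction, with 0.148%, 7.60%, 3.76% and 1.19% of all genes called in these comparisons. Males only gave 5 in 5xFAD-Dp16 against 5xFAD and 5 in carriers, and a fit of only the genotypes compared gave 5 in the former, but 22.5% and 31.3% of all tested genes were then called in 5xFAD-Dp16 against 5xFAD, and 14.2% in carriers with males only. The length correction gave 1, 1 and 4 in Dp16 against wild-type, 5xFAD-Dp16 against 5xFAD and carriers. Leaving out 1 library gave 0 to 1 in 5xFAD-Dp16 against 5xFAD, the 1 being without wild-type replicate 2, where 0.241% of all tested genes were called. In carriers it gave 0 to 3: 3 without wild-type replicate 4 (0.247% of all tested genes) and 1 without wild-type replicate 2 (0.138%). Elsewhere it gave 0, where at most 0.184% of all tested genes were called. RLE scaling, no sex term and the omission of both low-agreement libraries, the last chosen after seeing the data, gave 0 in each comparison. Of all tested genes, 0% to 0.176% were called in these fits. The causes were not tested.

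Small differences that had no call turned sign. The Kcnj6 interaction was -0.15 with the replicate block, -0.0233 without the sex term, -0.00633 in males only and -0.22 with the length correction. In 5xFAD against wild-type, Pcp4 was -0.0408 with the length correction, and with both low-agreement libraries out Grik1 was 0.0770 and Tiam1 -0.0725. Over left-out libraries, 5xFAD against wild-type ran from -0.44 to 0.18 for Itsn1, -0.17 to 0.54 for Tiam1 and -0.12 to 0.28 for Pcp4, and the interaction from -0.55 to 0.39 for Kcnj6 and -0.14 to 0.82 for Tiam1. In Dp16 against wild-type, the values ran from 0.29 (without wild-type replicate 2) to 0.67 for Synj1, 0.40 (without Dp16 replicate 3) to 0.99 for Itsn1 and 0.59 (without Dp16 replicate 3) to 1.29 for Tiam1, the upper ends without wild-type replicate 4. There Grik1 ran from 0.17 (without wild-type replicate 4) to 0.49 (without wild-type replicate 1), Kcnj6 from 0.97 to 1.64 and Pcp4 from 0.47 to 0.88. Pcp4 in 5xFAD-Dp16 against 5xFAD ran from 0.08 (without 5xFAD-Dp16 replicate 4) to 0.47 (without 5xFAD replicate 3). Of the other values of single genes, 815 kept direction and side of the threshold and 51 came to pass it.

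The labels do not say whether the sample numbers in the titles pair the libraries. Same-numbered libraries had correlations of deviations of -0.51 to 0.26 (median 0.008). Other-numbered libraries had -0.42 to 0.48 (median 0.009). These values cannot show whether litters or batches were shared. With the replicate block 0 of the 6 were called in every comparison, and 9 in place of 16 genes in all in carriers. Of the 18 most similar genes, 7 were again among the 3 best by rank correlation and 0 by correlation within genotypes. Of 33 marker shifts from wild-type, 28 had the same sign as means of log2 CPM. Depth limits Kcnj6 most, with 1987 reads over 16 libraries.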
